A study of Mus musculus with 17 samples.

Results

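Potassium channel subunits, the products of the Kcn genes, were followed through 17 mouse RNA-seq libraries in 4 count tables. Members were the genes whose symbol is Kcn followed by subfamily letters and a number, with antisense and overlapping transcripts left out. The tables listed 92 of them, in 20 subfamilies, among 36271 genes in all. A member was used in a neuron table when at least 2 libraries held 10 counts or more, and in the hippocampus table when 1 library did. That left 69 of 89 listed members in the ADM table, 72 of 91 in set 1, 72 of 92 in set 2 and 79 of 87 in hippocampus, and 80 members in at least 1 table. Just inside the threshold, the second highest count of Kcnk6 in set 1 was 10, and just outside, that of Kcng2 in the ADM table was 9. The 12 members used nowhere, among them Kcna10, Kcnk18 and Kcnv2, reached at most 11 counts in any library. A further 7 members passed in hippocampus alone (Kcne4, Kcng4, Kcnj5, Kcnj8, Kcnmb1, Kcnn4 and Kcnq1).

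Potassium channels let potassium leave a cell along its gradient, and in neurons they set the resting potential, end the action potential and limit repetitive firing. Among the voltage-gated pores, Kcna subunits line axons, Kcnb and Kcnc subunits carry delayed and fast repolarising currents, Kcnd subunits carry the dendritic A-type current, Kcnh subunits are of the ether-a-go-go type, and Kcnq subunits form the M-current that cholinergic signals switch off. Kcnf, Kcng, Kcns and Kcnv subunits make no channel alone and modify Kcnb channels, while Kcnab, Kcnip and Kcne proteins are auxiliary subunits. Kcnj genes encode inward rectifiers, including the G-protein-gated channels of neurons and the astrocytic Kcnj10. Kcnk genes encode leak channels, and Kcnma1, Kcnn, Kcnt and Kcnu1 channels respond to internal calcium, sodium or pH.

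All samples came from the C57BL/6 strain. The 14 neuron libraries were primary neurons in 7 groups of 2: ApoE particle-treated neurons and controls of a first set (set 1), ApoE particle-treated, reconstituted ApoE particle-treated and control neurons of a second set (set 2), and ADM-treated neurons with their controls. The 3 hippocampus libraries, 1 per group, came from mice with ApoE shRNA and FC, control shRNA and FC, and control shRNA without FC. The labels spell out neither ADM nor FC and give no dose, time or age. Nothing in them tells whether the 2 libraries within a group had a culture each, so p-values measure only the spread between these samples, which may be technical. They also name no promoter or delivery route for the shRNA. All SDs of neuron groups below are over n = 2 libraries.

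Library totals ran from 14624082 to 19142353 counts. Apoe, the target of the shRNA, had 26148 counts in the ApoE shRNA hippocampus with FC, against 49755 in the control shRNA hippocampus with FC and 30823 in the one without FC. The 9 neuron markers summed to between 4834 and 7315 CPM over all cultures. Astrocyte markers were present in all cultures and differed between tables: 9 genes summed to between 2847 and 4207 CPM (counts scaled to a common library size) in set 1, 979.5 and 1534 CPM in set 2, and 643.9 and 1241 CPM in the ADM table. The ADM libraries stood apart from each other, with vessel and fibroblast markers summing to between 56.6 and 1182 CPM in ADM-treated neurons, against 21.9 to 71.9 CPM in their controls. Since these are bulk libraries, fewer cells of a type and less RNA per cell cannot be told apart.

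Promoter windows from RefSeq (build GRCm38.p6, 250 bases before to 50 after the annotated start) existed for 67 of the 92 members, as 92 windows. They are printed for 4 members: Kcnip2, the member with the lowest fold change in set 1 (chr19:45816014-45816313, minus strand), and Kcnj10 (chr1:172340960-172341259, plus strand), Kcns1 (chr2:164171064-164171363, minus strand) and Kcnt2 (chr1:140245468-140245767, plus strand), whose levels changed in opposite directions in the 2 sets. Capitals mark every match, on either strand, to a GC box (GGGCGG) or a CCAAT box (CCAAT).
Kcnip2: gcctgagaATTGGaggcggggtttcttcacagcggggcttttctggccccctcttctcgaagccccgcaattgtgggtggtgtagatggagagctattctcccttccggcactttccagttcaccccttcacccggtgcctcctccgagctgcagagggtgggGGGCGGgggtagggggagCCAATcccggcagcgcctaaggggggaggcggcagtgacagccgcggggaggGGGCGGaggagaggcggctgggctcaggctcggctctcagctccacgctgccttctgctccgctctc
Kcnj10: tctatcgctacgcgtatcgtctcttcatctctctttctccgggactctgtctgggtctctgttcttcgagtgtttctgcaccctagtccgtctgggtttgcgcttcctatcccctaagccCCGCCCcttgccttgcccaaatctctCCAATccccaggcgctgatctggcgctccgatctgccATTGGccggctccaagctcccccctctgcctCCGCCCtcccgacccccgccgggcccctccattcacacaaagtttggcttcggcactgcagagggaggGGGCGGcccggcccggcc
Kcns1: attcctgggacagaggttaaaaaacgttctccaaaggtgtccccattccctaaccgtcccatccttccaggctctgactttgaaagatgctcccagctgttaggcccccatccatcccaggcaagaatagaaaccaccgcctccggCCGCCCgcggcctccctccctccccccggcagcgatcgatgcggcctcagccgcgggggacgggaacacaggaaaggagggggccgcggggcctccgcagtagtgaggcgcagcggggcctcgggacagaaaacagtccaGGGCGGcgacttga
Kcnt2: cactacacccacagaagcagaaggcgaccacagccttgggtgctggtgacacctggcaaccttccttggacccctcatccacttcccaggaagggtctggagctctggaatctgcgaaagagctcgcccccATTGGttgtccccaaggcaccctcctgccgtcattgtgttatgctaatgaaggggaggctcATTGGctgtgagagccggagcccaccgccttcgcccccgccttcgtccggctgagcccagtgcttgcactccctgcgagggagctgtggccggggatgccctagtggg
The GC box matched 2 times in the Kcnip2 window, 3 times in Kcnj10, 2 times in Kcns1 and 0 times in Kcnt2. The CCAAT box matched 2 times in each of Kcnip2, Kcnj10 and Kcnt2 and 0 times in Kcns1. A GC box stood in 47.8% of the 92 member windows and in 35.7% of all 32851 windows of the table, and a CCAAT box in 30.4% of member windows and 37.4% of all windows. The cyclic AMP response element (TGACGTCA) and the composite element of the amino acid stress response (TGATGNAAT), found in 1.79% and 0.965% of all windows, matched no member window, and the TATA box (TATAAA, 5.43% of member windows and 13.6% of all windows) matched none of the 4 shown. All motifs were searched on both strands, none contains another, and a match describes the letters only. The GC content was 67.0% in the Kcnip2 window, 63.7% in Kcnj10, 64.0% in Kcns1 and 62.7% in Kcnt2, and its median was 58.0% over member windows and 52.7% over all windows.

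Levels of members were compared with each other in CPM per kb of exon. Members with high levels on this scale in set 2 controls were Kcnd2 (16.9 ± 0.65, SD, n = 2), a pore of the A-type current, Kcnj10 (16.7 ± 1.28), the inward rectifier by which astrocytes take up potassium, and Kcnf1 (14.4 ± 1.29), a silent partner of Kcnb channels. Kcnd2 and Kcnj10 did not differ beyond their spread there. In set 1 controls Kcnj10 (16.2 ± 1.97), the leak channel gene Kcnk2 (15.1 ± 1.85) and the strong inward rectifier Kcnj4 (14.7 ± 0.21) were high and lay within each other's spread. Kcnj10 was uneven in the ADM controls, with 12.5 and 60.5 CPM. The calcium-activated Kcnma1 stood at 12.3 ± 1.73 CPM per kb in set 1 controls, 9.14 ± 0.10 in set 2 controls and 4.03 ± 0.52 in ADM controls.

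In hippocampus without FC the axonal auxiliary subunit Kcnab2 led with 138.6 CPM per kb. Other members with high levels there were Kcnip2 (58.9 CPM per kb), a calcium-binding auxiliary subunit of Kcnd channels, the fast-repolarising pore Kcnc4 (33.1) and Kcnj9 (33.02), a subunit of G-protein-gated inward rectifiers. Of the 69 members used in all 4 tables, 47 were higher in this hippocampus library than in every control culture group, 14 were lower than in every one and 8 lay between. Kcnab2 stood at 13.2 times the highest culture group, Kcnj9 at 7.90 times and Kcnip2 at 5.46 times. The leak channel gene Kcnk10 stood at 0.212 times the highest culture group and the ether-a-go-go gene Kcnh8 at 0.0827 times. The tables were scaled separately and this hippocampus group has 1 library, so these ratios carry no test. The same counts were not taken over all genes. Whether the share of higher members is particular to Kcn genes therefore cannot be told.

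**Figure D1:**
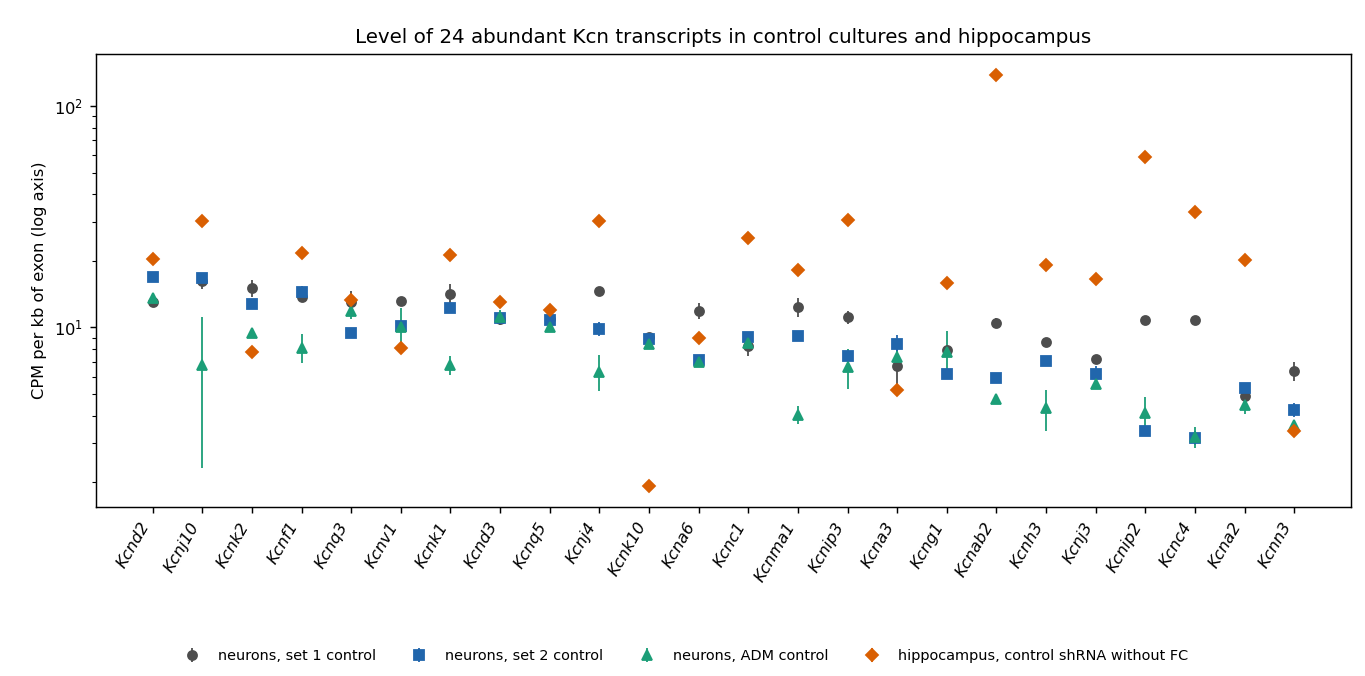
Level of 24 members that are abundant in control cultures (x axis), in CPM per kb of exon on a log axis (y axis); points are group means, bars span the 2 libraries of a culture group, and the hippocampus point is 1 library. Kcnab2 leads the hippocampus, at 138.6 CPM per kb, while Kcnj10 and Kcnd2 stand at 16.7 and 16.9 CPM per kb in set 2 controls.

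The set 1 comparison asked which transcripts changed in neurons given the ApoE particle. Of 72 Kcn members tested, 7 rose and 39 fell at an adjusted p under 0.05 (edgeR's quasi-likelihood test with Benjamini-Hochberg adjustment over all genes), and 26 did not pass. That is 9.72% higher and 54.2% lower, beside 18.9% higher and 17.4% lower among all 16475 genes tested. The median log2 fold change was -0.51 for the members and -0.01 for all genes. Summed over the members, the level was 2231 and 2211 CPM in ApoE particle neurons, against 2626 and 2933 CPM in controls.

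Among voltage-gated pore subunits of set 1, 1 of 27 tested members rose and 13 fell. The fast-repolarising Kcnc2 had 17.1 and 17.2 CPM in ApoE particle neurons, against 52.4 and 60.2 CPM in controls, with both particle libraries far below both controls. Its log2 fold change was -1.71 ± 0.11 (SE; edgeR adjusted p = 2.3e-06). Of the other Kcnc genes, Kcnc4 fell (-0.81 ± 0.11), while Kcnc1 (-0.24 ± 0.10) did not pass. Kcnq3, an M-current subunit, had 131 and 126 CPM in ApoE particle neurons, against 167 and 215 CPM in controls (-0.57 ± 0.12, edgeR adjusted p = 0.0025). Kcnq5, a further M-type subunit, also fell (-0.54 ± 0.11). In both genes the particle libraries were alike and the controls more spread.

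The pores of the A-type current did not move together in set 1. Kcnd2 had 68.8 and 65.0 CPM in ApoE particle neurons, against 66.5 and 67.2 CPM in controls (log2 fold change 0.00 ± 0.09), so the groups overlapped. Kcnd3 rose, with 135 and 128 CPM in ApoE particle neurons, against 98.8 and 110.4 CPM in controls (0.33 ± 0.09, edgeR adjusted p = 0.014), and Kcnd1 fell (-0.52 ± 0.13). The call of Kcnd3 was lost without either particle library (edgeR adjusted p = 0.194 and 0.0886), and so was that of Kcnd1.

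Auxiliary subunits had 5 falls and 0 rises among 7 tested in set 1. Kcnip2 had 10.4 and 8.88 CPM in ApoE particle neurons, against 38.5 and 36.5 CPM in controls, and its log2 fold change of -1.96 ± 0.13 was the lowest of the 72 members (edgeR adjusted p = 2.4e-06). Kcnip1, of the same family, had 20.5 and 18.3 CPM in ApoE particle neurons, against 40.9 and 38.5 CPM in controls (-1.03 ± 0.11). Kcnip4 also fell (-0.67 ± 0.15), though not without particle replicate 1 (edgeR adjusted p = 0.0518), and Kcnip3 did not pass (-0.29 ± 0.11). Of the Kcna auxiliary subunits, Kcnab1 (-0.79 ± 0.12) and Kcnab2 (-0.69 ± 0.10) fell and Kcnab3 did not pass (-0.28 ± 0.28). The axonal pore Kcna1 (-0.74 ± 0.24) fell, but lost its call in DESeq2 and when single libraries were left out, with an adjusted p of 0.207 without control replicate 2 (edgeR).

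Of 8 silent subunits tested in set 1, 5 fell and 0 rose. Kcng1, a silent partner of Kcnb channels, had 12.7 and 12.4 CPM in ApoE particle neurons, against 35.8 CPM in both controls (log2 fold change -1.51 ± 0.11, edgeR adjusted p = 4.9e-06). Kcnv1 (-0.77 ± 0.10), Kcnf1 (-0.48 ± 0.09), Kcns1 (-0.96 ± 0.19) and Kcns2 (-0.89 ± 0.24) were the others. Kcns2 did not pass without particle replicate 2 (edgeR adjusted p = 0.123), nor did Kcnf1 without particle replicate 1. Of 7 calcium- or sodium-activated pores, 5 fell and 0 rose. The sodium-activated Kcnt2 had 14.2 and 14.7 CPM in ApoE particle neurons, against 27.8 and 32.8 CPM in controls (-1.07 ± 0.13), and Kcnt1 (-0.56 ± 0.13) and Kcnma1 (-0.58 ± 0.11) fell less. Kcnmb2, the auxiliary subunit that makes Kcnma1 channels inactivate, had 2.40 and 2.19 CPM in ApoE particle neurons, against 7.66 and 7.18 CPM in controls (-1.69 ± 0.22). The small-conductance channel Kcnn2 did not pass (-0.14 ± 0.13), nor did Kcnmb4, with 0.676 and 0.955 CPM in ApoE particle neurons, against 0.843 and 1.42 CPM in controls.

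Inward rectifiers had 2 rises and 6 falls among 11 tested in set 1. Kcnj3, a subunit of G-protein-gated rectifiers, had 19.9 and 19.3 CPM in ApoE particle neurons, against 37.0 and 37.8 CPM in controls (log2 fold change -0.93 ± 0.11). Of its exon bases, 31.1% are shared with a gene annotated on the opposite strand, and since the strand setting of the counting is not given in the sources used here, reads of the 2 genes cannot be told apart. Its partners Kcnj9 (-0.76 ± 0.15) and Kcnj6 (-0.83 ± 0.26) also fell, the second neither in DESeq2 nor without control replicate 2 (edgeR adjusted p = 0.233). Kcnj10 was the opposite case, with 179.7 and 188 CPM in ApoE particle neurons, against 95.3 and 80.3 CPM in controls (1.07 ± 0.10, edgeR adjusted p = 1.8e-05). Its astrocytic partner Kcnj16 overlapped between groups (-0.09 ± 0.14).

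Leak channels of set 1 split into 4 rises and 4 falls among 10 tested. Kcnk2, a mechanically gated leak channel, had 117 and 122 CPM in ApoE particle neurons, against 81.1 and 68.2 CPM in controls (log2 fold change 0.68 ± 0.10); 12.2% of its exon bases are shared with an opposite-strand gene. Kcnk1, a weak leak channel, had 48.7 and 49.8 CPM in ApoE particle neurons, against 35.0 and 28.5 CPM in controls (0.63 ± 0.11). Kcnk4, a mechanically gated relative of Kcnk2, went the other way, with 1.29 and 1.80 CPM in ApoE particle neurons, against 5.12 and 6.70 CPM in controls (-1.93 ± 0.28). Its exon bases lie to 13.1% in a neighbouring gene of the same strand. The remaining rises were of scarce members, named after their values were seen. Kcnk13 had 82 and 85 counts in ApoE particle neurons, against 45 and 55 in controls, Kcnk5 had 36 and 37 counts, against 17 and 11 in controls, and the inward rectifier Kcnj15 had 11 and 17 counts, against 0 and 2 in controls. The calls of Kcnk13 and Kcnk5 were lost in DESeq2 and in at least 1 fit without a single library, and that of Kcnj15 without particle replicate 2.

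Cell type markers moved in the same set 1 libraries. Of 9 neuron markers 8 fell, with sums of 4834 to 5041 CPM in ApoE particle neurons, against 6980 to 7315 CPM in controls. Of 9 astrocyte markers 8 rose and 1 fell, with sums of 4054 to 4207 CPM in ApoE particle neurons, against 2847 to 3075 CPM in controls. Of 9 tested microglia markers 8 rose (225.7 to 228.6 CPM in ApoE particle neurons, against 58.2 to 70.5 CPM in controls), as did all 8 proliferation markers (501 to 593 CPM, against 131 to 149 CPM in controls). Of 7 tested vessel and fibroblast markers 3 rose and 1 fell. That list summed to 280.5 to 304.1 CPM in ApoE particle neurons, against 66.8 to 86.6 CPM in controls. Cldn5, a vessel marker of the list, was at 0 in all set 1 libraries. The part of these cell types in the Kcn results was not tested. Scaling by library totals alone moved the median of all genes to 0.10, with 8 members higher and 36 lower, and 65.6% of all called genes were then higher, against 52.0% with the scaling used here.

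**Figure D2:**
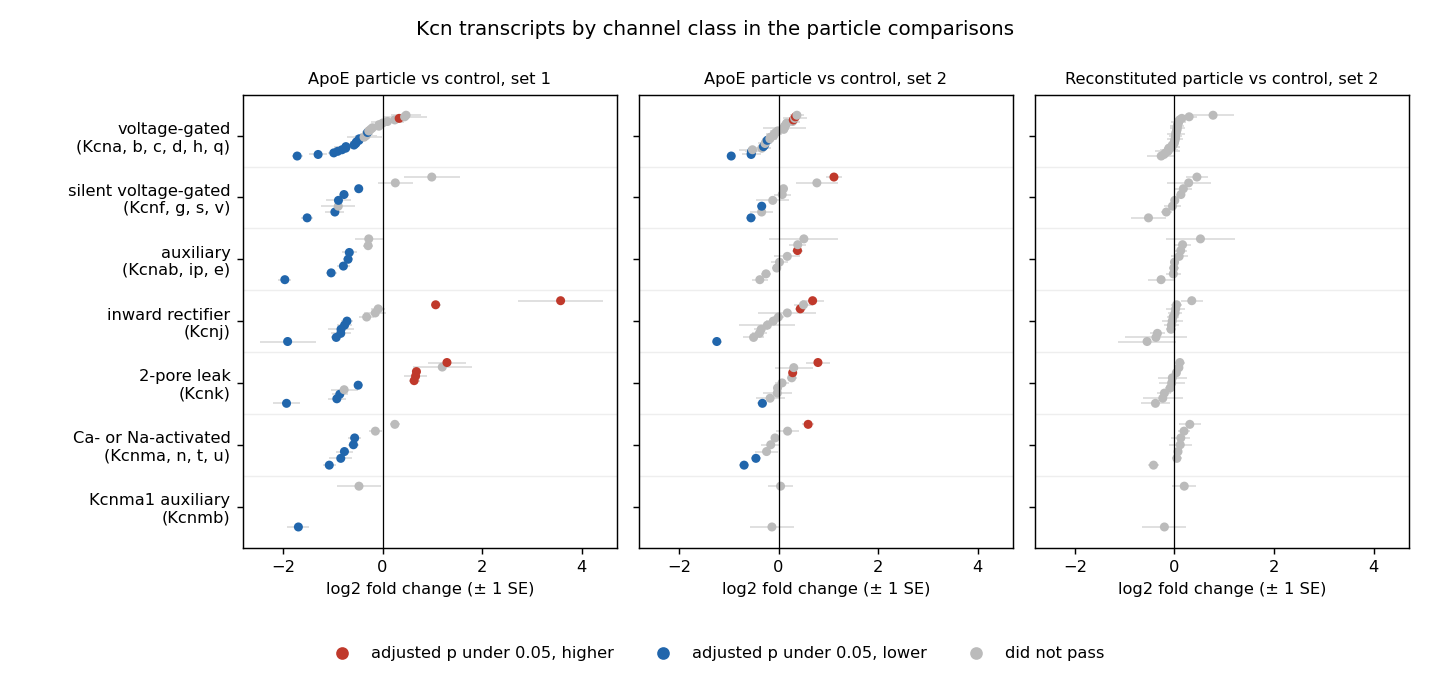
Log2 fold change (x axis, ± 1 SE) of every tested member by channel class (y axis) for the ApoE particle in set 1, the ApoE particle in set 2 and the reconstituted particle in set 2, each against its controls. In set 1, 7 members rose and 39 fell; in set 2, 9 rose and 13 fell with the ApoE particle and 0 passed with the reconstituted particle.

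The second set repeated the ApoE particle comparison with its own controls. Of 72 members, 9 rose and 13 fell, or 12.5% and 18.1%, beside 10% higher and 12.1% lower among all 16388 genes tested. The shares lay near those of all genes, and the median log2 fold change was -0.05 for members and 0.00 for all genes. The summed level was 2288 and 2282 CPM in ApoE particle neurons, against 2469 and 2539 CPM in controls.

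The M-current subunit Kcnq3 fell in set 2 as well. It had 74.7 and 69.6 CPM in ApoE particle neurons, against 137 and 142 CPM in controls, with the particle libraries far below (log2 fold change -0.95 ± 0.06, edgeR adjusted p = 3.2e-11). Kcnq5 (0.16 ± 0.08) did not pass. Kcnt1 had 20.9 and 21.6 CPM in ApoE particle neurons, against 32.1 and 36.4 CPM in controls (-0.69 ± 0.10). Kcng1 had 17.3 and 20.3 CPM in ApoE particle neurons, against 27.1 and 28.1 CPM in controls (-0.55 ± 0.11). Neither gene's groups overlapped. Kcnh3, an ether-a-go-go channel of forebrain neurons, fell by 0.55 ± 0.09, and Kcnn3, a small-conductance calcium-activated channel, fell by 0.45 ± 0.10 on the log2 scale. The axonal Kcna1 (-0.54 ± 0.14) and Kcna2 (-0.23 ± 0.07), the silent Kcnv1 (-0.34 ± 0.09) and the ether-a-go-go channel Kcnh5 (-0.55 ± 0.19) also fell, but each lost its call in at least 1 fit without a single library. The leak channel Kcnk9 (-0.32 ± 0.10), named after its value was seen, also fell, but not in DESeq2, nor without control replicate 2 or either particle library.

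Kcnj10 had the lowest fold change of set 2. It had 33.4 and 42.9 CPM in ApoE particle neurons, against 95.01 and 85.2 CPM in controls (-1.24 ± 0.11, edgeR adjusted p = 3.8e-06), the reverse of its direction in set 1. Kcnj16 had 8.87 and 8.80 CPM in ApoE particle neurons, against 12.02 and 11.04 CPM in controls, and did not pass (-0.38 ± 0.16, edgeR adjusted p = 0.085). Of 9 astrocyte markers, 1 rose and 7 fell in these libraries, with sums of 979.5 to 1071 CPM in ApoE particle neurons, against 1446 to 1534 CPM in controls. Of 9 neuron markers 3 fell (5924 to 5991 CPM in ApoE particle neurons, against 6299 to 6371 CPM in controls), 7 of 8 proliferation markers fell, and microglia markers summed to at most 1.51 CPM. All 7 interferon response genes fell, with sums of 32.2 to 33.9 CPM in ApoE particle neurons, against 792 to 804 CPM in controls. The part of these cell types and of the interferon response in the Kcn results was not tested.

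Among the rises of set 2, Kcns1, a silent partner of Kcnb channels, had 16.3 and 16.5 CPM in ApoE particle neurons, against 6.92 and 8.25 CPM in controls (log2 fold change 1.11 ± 0.15, edgeR adjusted p = 8.6e-06). Kcnt2 had 20.6 and 22.6 CPM in ApoE particle neurons, against 13.8 and 14.8 CPM in controls (0.59 ± 0.12). Kcnd2 had 112 and 109 CPM in ApoE particle neurons, against 84.9 and 89.6 CPM in controls (0.34 ± 0.06). The calls of these genes and of Kcnk2 (0.28 ± 0.07) stood in every fit that left out 1 library. Their libraries did not overlap between groups, as was so for all 22 called members of set 2. A call with 2 libraries per group favours such a separation, so it adds no evidence. The other 5 rises were each lost in at least 1 such fit: the leak channel Kcnk12 (0.79 ± 0.25), the strong inward rectifiers Kcnj12 (0.68 ± 0.22) and Kcnj4 (0.44 ± 0.11), Kcnip1 (0.38 ± 0.12) and the axonal A-type pore Kcna4 (0.30 ± 0.10). Kcnj3 had 44.8 and 46.6 CPM in ApoE particle neurons, against 29.7 and 34.8 CPM in controls. It did not pass in edgeR (adjusted p = 0.12) but did in DESeq2 (adjusted p = 0.0152) and with the 2 groups fitted alone (edgeR adjusted p = 0.00053).

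**Figure D3:**
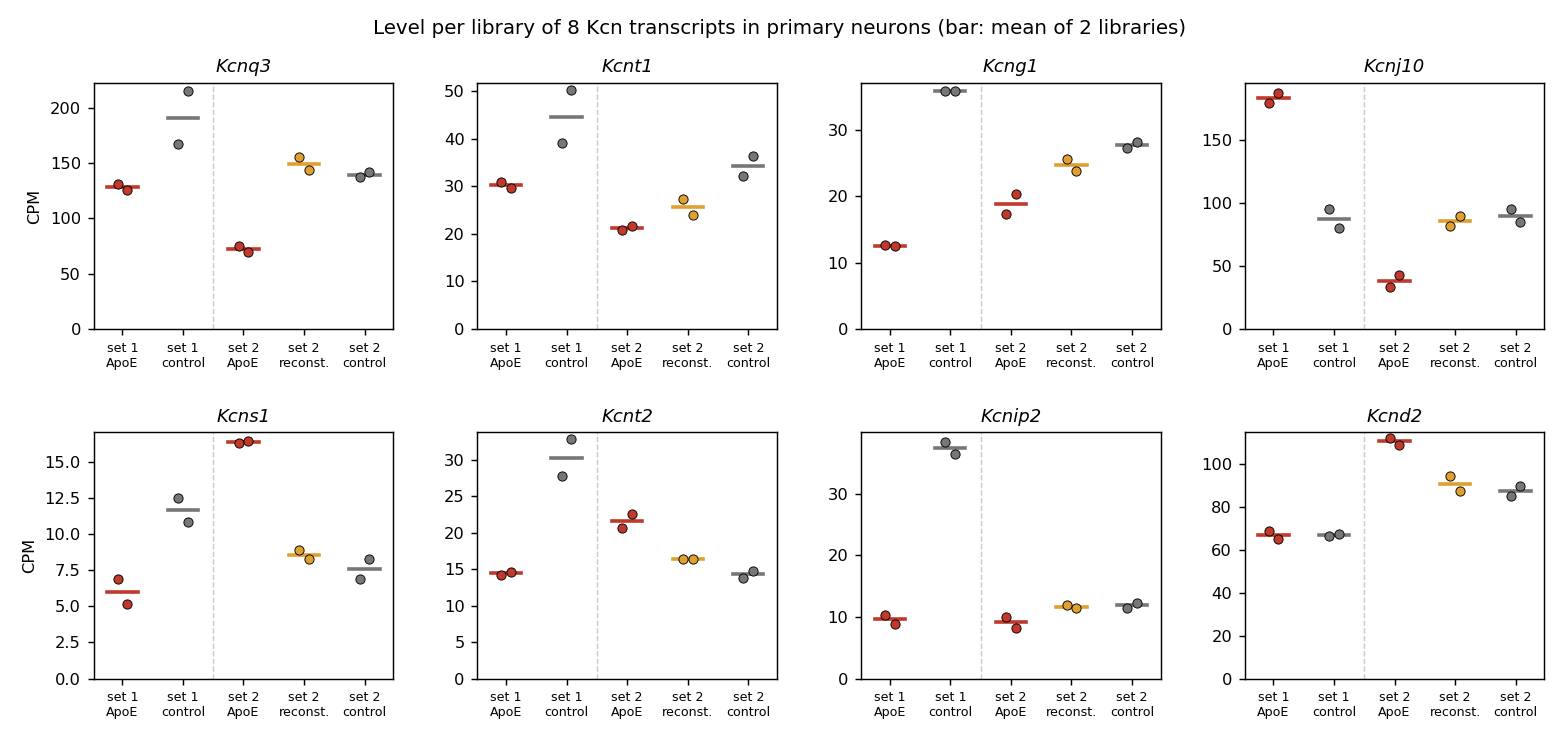
CPM (y axis from 0) of 8 members in each library of set 1 and set 2 (x axis), with the group mean as a bar. Kcng1, Kcnq3 and Kcnt1 are lower in ApoE particle neurons of both sets, while Kcnj10, Kcns1 and Kcnt2 move in opposite directions, with Kcnj10 at 179.7 and 188 CPM in set 1 and 33.4 and 42.9 CPM in set 2 particle neurons.

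The 2 sets share no library, so their calls can be set side by side. The members that fell in both numbered 8 (among them Kcna1, Kcng1, Kcnh3, Kcnq3, Kcnt1 and Kcnv1), or 20.5% of the falls of set 1 and 61.5% of those of set 2. Kcnk2 rose in both. The members that fell in set 1 and rose in set 2 numbered 6 (Kcna4, Kcnip1, Kcnj4, Kcnk12, Kcns1 and Kcnt2), or 15.4% of the set 1 falls and 66.7% of the set 2 rises. These shares stand beside the 54.2% of all tested members that fell in set 1. Among the 15648 genes tested in both sets, 26.4% of the set 2 falls and 26.1% of the set 2 rises fell in set 1. Kcnj10 rose in set 1 and fell in set 2.

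Whether the ApoE particle effect differed between the sets was tested as an interaction over 71 members. The effect was more positive in set 2 for 32 members (45.1%) and more negative for 6 (8.45%), beside 14.8% and 16.4% of all 17098 genes tested. The median difference, set 2 minus set 1, was 0.41 on the log2 scale for members and 0.00 for all genes. Kcns1 had a difference of 2.04 ± 0.24 (edgeR adjusted p = 1.8e-05), Kcnt2 of 1.64 ± 0.17, Kcnip2 of 1.56 ± 0.20 and Kcnc2 of 1.51 ± 0.17. On the other side stood Kcnj10 (-2.33 ± 0.16, edgeR adjusted p = 2.8e-07), Kcnn3 (-0.73 ± 0.15), Kcnd3 (-0.46 ± 0.11), Kcnk2 (-0.42 ± 0.12), Kcnq3 (-0.40 ± 0.14) and the scarce Kcnj15. Of these, Kcnk2, Kcnq3 and Kcnj15 lost their calls in at least 1 fit without a single library. For Kcnt1 (-0.16 ± 0.17) and Kcna1 (0.17 ± 0.29) no difference passed, which does not show equal effects. The sets differ in astrocyte and microglia marker levels. Interferon response genes summed to 792 to 804 CPM in set 2 controls, against 46 to 49 CPM in set 1 controls. The effect was more negative in set 2 for all 7 of these genes and all 8 proliferation markers. Of 8 vessel and fibroblast markers it was more negative for 5 and more positive for 1, and of 9 neuron markers more positive for 6. The part of these differences in the Kcn results was not tested.

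**Figure D4:**
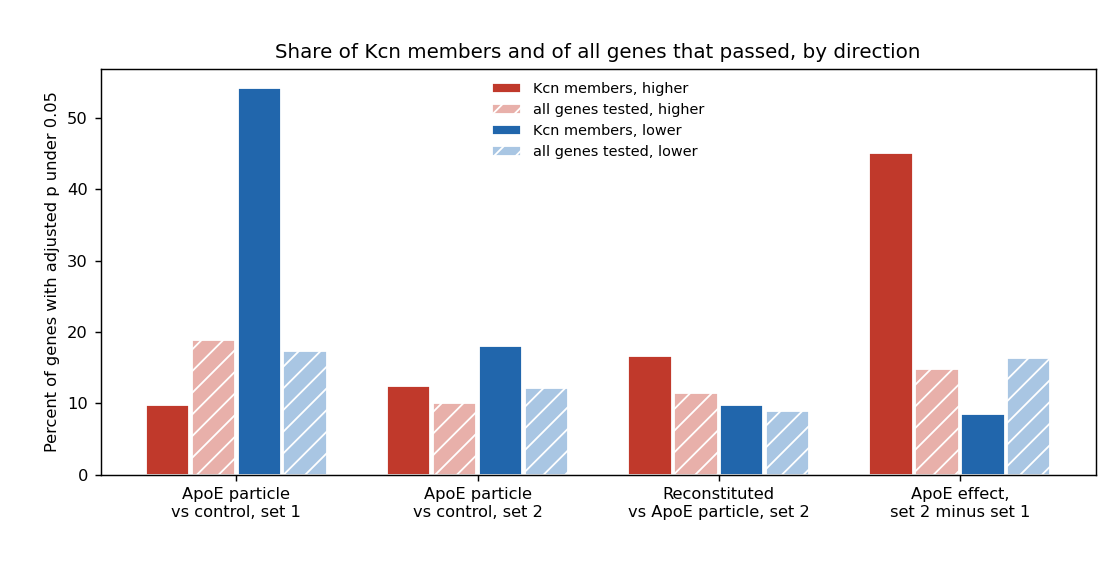
Percent of tested Kcn members and of all tested genes with an adjusted p under 0.05 (y axis), higher and lower, in 4 comparisons (x axis). In set 1, 54.2% of members fell, beside 17.4% of all genes; in set 2 the falls were 18.1% of members, beside 12.1% of all genes.

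With the reconstituted particle, no member passed against the set 2 controls in edgeR (0 higher and 0 lower of 72, beside 0% and 0% of all genes), and DESeq2 called 0. At an unadjusted p under 0.05, 1 member was higher (Kcng3) and 2 were lower (Kcnj16 and Kcnt1), beside 2.29% and 2.45% of all genes. Log2 fold changes of members ran from -0.55 to 0.77 with a median of 0.02. Kcnt1 had 27.2 and 23.97 CPM in reconstituted particle neurons, against 32.1 and 36.4 CPM in controls (-0.42 ± 0.10, edgeR adjusted p = 0.98). Its groups did not overlap, but an unadjusted p under 0.05 favours such a separation, so it adds no evidence. Kcnq3 had 155 and 144 CPM, Kcnj10 had 81.8 and 89.9 CPM and Kcns1 had 8.91 and 8.25 CPM in reconstituted particle neurons, near the control values given above.

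Set directly against the ApoE particle, the reconstituted particle gave 12 members higher and 7 lower, or 16.7% and 9.72% of 72, beside 11.4% and 8.88% of all genes. The ApoE particle libraries are those of the set 2 comparison with controls. Kcnj10 averaged 85.8 CPM in reconstituted and 38.1 CPM in ApoE particle neurons (log2 fold change 1.17 ± 0.11), and Kcnq3 averaged 149.5 CPM in reconstituted and 72.2 CPM in ApoE particle neurons (1.05 ± 0.06, edgeR adjusted p = 4.4e-12). Kcnn3 (0.50 ± 0.10) and Kcnv1 (0.47 ± 0.09) were also higher in every fit without a single library. Kcns1 (-0.93 ± 0.15, edgeR adjusted p = 7.9e-05) and Kcnd2 (-0.29 ± 0.06) were lower in every such fit. Kcnt1 did not pass between the particles. Of 9 astrocyte markers 7 were higher and 0 lower, with 1466 to 1526 CPM in reconstituted and 979.5 to 1071 CPM in ApoE particle neurons. All 7 interferon response genes were higher (751 to 786 CPM, against 32.2 to 33.9 CPM), as were 7 of 8 proliferation markers and 4 of 9 neuron markers. Their part in the Kcn results was not tested.

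In the ADM comparison none of 69 members passed in edgeR (0 higher and 0 lower, beside 0% and 0% of 16191 genes). DESeq2 called 0 members, beside 265 genes higher and 39 lower of 15650 tested. The median log2 fold change was -0.24 for members and 0.02 for all genes. At an unadjusted p under 0.05, 0 members were higher and 4 were lower, beside 6.05% and 2.76% of all genes. Kcnq3 had 113 and 92.9 CPM in ADM-treated neurons, against 160.1 and 188 CPM in controls (-0.76 ± 0.17, edgeR adjusted p = 0.48). Of the others, 2 are named after their values were seen. Kcnq5 had 54.0 and 39.9 CPM in ADM-treated neurons, against 78.2 and 75.9 CPM in controls, and Kcng1 had 15.4 and 19.1 CPM in ADM-treated neurons, against 26.6 and 43.3 CPM in controls. In these 3 genes both ADM libraries lay below both controls. All 3 are among the 4 lower at an unadjusted p under 0.05, a choice that favours such a separation, so it adds no evidence. Without ADM replicate 1, which leaves 1 ADM library, the log2 fold change of Kcnq3 was -0.92. Kcnj10 had 19.5 and 109.9 CPM in ADM-treated neurons, against 12.5 and 60.5 CPM in controls, and the groups overlapped.

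ADM and the ApoE particle of set 1 were also compared by interaction, which passed for 0 of 69 members in edgeR (beside 0% and 0% of all genes). At an unadjusted p under 0.05 it was more positive for 12 members and more negative for 2, beside 6.38% and 3.84% of all genes. DESeq2 called 3 members, all more positive, beside 171 genes more positive and 30 more negative of 14870 tested.

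In hippocampus, with 1 library per group and no test, members were compared by their ratio of CPM and an exact 95% interval that covers counting error only. A member counts as higher or lower when the ratio reaches 1.5-fold and the larger of both counts is at least 100. The 3 comparisons share libraries, so a library with a high value enters a pair of them with opposite signs. In ApoE shRNA with FC against control shRNA with FC, 8 of 63 members were higher and 9 lower, beside 4.46% and 17.9% of all genes. In control shRNA with FC against control shRNA without FC, 6 of 62 were higher and 8 lower, beside 12.3% and 4.46% of all genes. In ApoE shRNA with FC against control shRNA without FC, 3 of 61 were higher and 2 lower, beside 1.14% and 6.09% of all genes.

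Several members were highest in the control shRNA library with FC. The leak channel gene Kcnk6 had 80 counts in the ApoE shRNA library with FC, 253 in the control shRNA library with FC and 56 in the control shRNA library without FC. Its log2 ratio was -1.74 (interval -2.13 to -1.38) for ApoE shRNA against control shRNA with FC, and 2.196 (1.78 to 2.65) for control shRNA with FC against without. Across the same 3 libraries (ApoE shRNA with FC, control shRNA with FC, control shRNA without FC), the strong inward rectifier Kcnj2 had 192, 431 and 167 counts, and Kcnj10 had 3007, 5203 and 2959 counts. The calcium-activated Kcnn4, a channel of blood and immune cells named after its values were seen, had 3, 58 and 17 counts, under the count minimum. Microglia markers summed to 259.8, 1538 and 343.7 CPM in these libraries, astrocyte markers to 4152, 7380 and 5353 CPM and interferon response genes to 60.7, 673 and 62.4 CPM. Their part in these ratios was not tested.

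Other members were lowest in the control shRNA library with FC. Across the libraries with ApoE shRNA and FC, control shRNA and FC, and control shRNA without FC, Kcnip2 had 4464, 2236 and 3721 counts, Kcng1 had 1391, 644 and 1297 counts, and Kcnab2 had 17394, 9582 and 14046 counts. The Kcnip2 log2 ratio was 0.91 (0.84 to 0.98) for ApoE shRNA against control shRNA with FC, and -0.70 (-0.78 to -0.63) for control shRNA with FC against without. The silent subunits Kcns3 and Kcng2 took the same course, with log2 ratios of 0.83 and 0.73 for ApoE shRNA against control shRNA with FC. Kcnq3, with 4055, 3883 and 3572 counts in the same libraries, stayed short of 1.5-fold in each comparison. For Kcnj3 the ApoE shRNA library was the low one, with 977 counts, against 1759 in the control shRNA library with FC and 1571 in the one without FC. Its log2 ratio was -0.94 (-1.05 to -0.82) against the first of these and -0.74 (-0.86 to -0.63) against the other. Kcnj16 (302, 424 and 498 counts) was also lowest there.

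**Figure D5:**
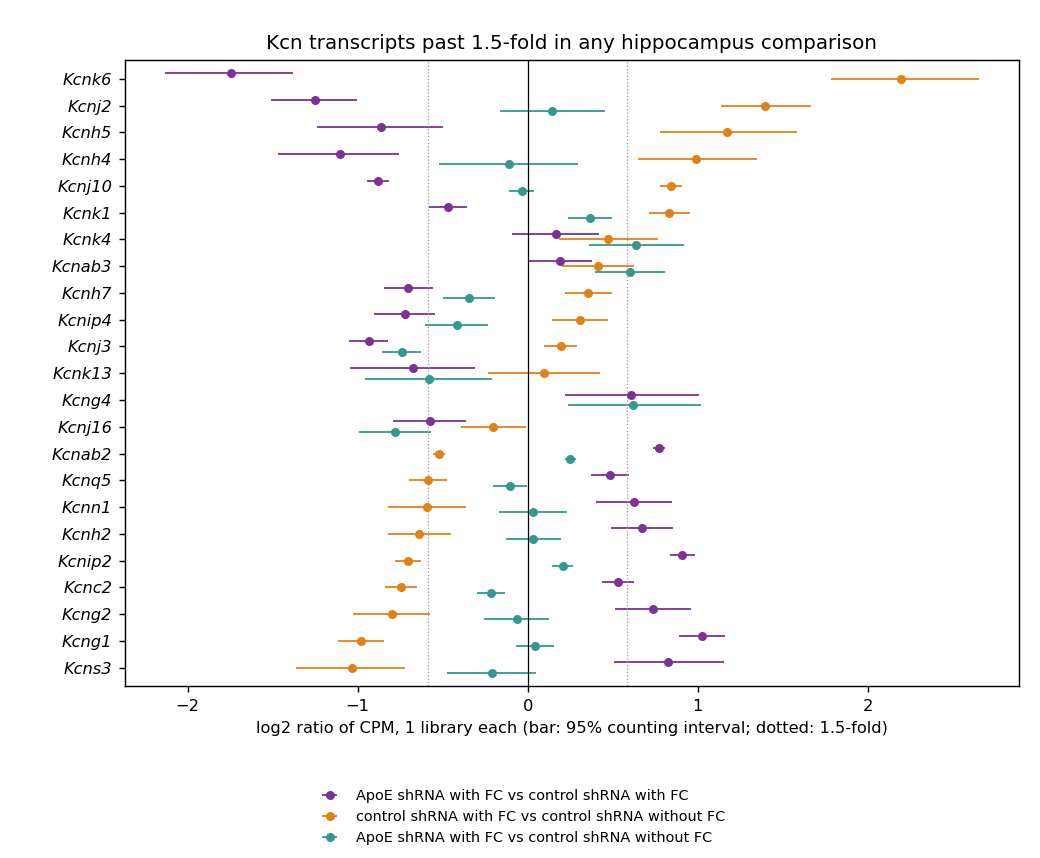
Log2 ratio of CPM (x axis) with its 95% counting interval for the members (y axis) past 1.5-fold in any of the 3 hippocampus comparisons, 1 library per group. From Kcnk6 (-1.74 and 2.196) at the top to Kcns3 at the bottom, most members have opposite signs in the pair of comparisons that share the control shRNA library with FC.

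Genes that work with these channels were counted from a list of 35, of which 30 were tested in each neuron comparison. In set 1, 2 of the 30 rose and 21 fell, beside 18.9% higher and 17.4% lower among all genes. The median log2 fold change of the 30 was -0.42. Lgi1, a secreted protein that binds axonal Kcna channel complexes, averaged 16.2 ± 0.72 CPM in ApoE particle neurons and 38.0 ± 0.27 CPM in controls (SD, n = 2). Dpp10, an auxiliary subunit of Kcnd channels, averaged 65.7 ± 4.99 CPM in ApoE particle neurons and 120.1 ± 4.19 CPM in controls. Both fell with no overlap of their SDs. They were named for their low adjusted p, which favours such a separation, so it adds no evidence. Kcne1l, a single-pass relative of the Kcne subunits outside the naming rule, rose to 61.8 ± 2.60 CPM in ApoE particle neurons, against 16.9 ± 4.53 CPM in controls, and Rest, a repressor of neuronal genes, rose by 0.72 ± 0.14 on the log2 scale.

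In set 2, 4 of the 30 rose and 9 fell, beside 10% higher and 12.1% lower among all genes. The median log2 fold change of the 30 was -0.06. Cntn2, which holds Kcna channels beside the node of Ranvier, averaged 163 ± 3.75 CPM in ApoE particle neurons and 294 ± 4.91 CPM in controls (log2 fold change -0.85 ± 0.05, edgeR adjusted p = 4.2e-11). The ankyrins Ank2 and Ank3, the second of which anchors Kcnq channels at the axon initial segment, fell by 0.44 ± 0.04 and 0.31 ± 0.04. Kcne1l averaged 18.8 ± 4.31 CPM in ApoE particle neurons and 35.7 ± 2.05 CPM in controls, like Kcnj10 the reverse of set 1. Between the reconstituted particle and controls 0 of the 30 passed in edgeR. Between the reconstituted and the ApoE particle 9 were higher, among them Cntn2 (0.97 ± 0.05), and 3 lower. Among all genes 11.4% were higher and 8.88% lower there. In the ADM comparison 0 of the 30 passed.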

How the data were processed

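RNA-seq libraries of primary neurons and hippocampus were analysed from deposited whole-number counts per gene in 4 tables, per the file headers. Tools listed in the submitters' processing notes are HTSeq 0.6.0, HISAT2 2.1.0 and Bowtie2 2.2.3, with build mm10. What each did, and the strand setting, was not given in the sources used here. In the set 2 table, 1489 genes without values in part of the libraries were left out, and 0 of them were members. Each neuron table was fitted alone with edgeR 4.0.16 in R 4.3.3 (expression filter, TMM scaling, robust quasi-likelihood test, Benjamini-Hochberg over all genes), and differences between sets by an interaction over both tables. DESeq2 1.42.0, other scalings and filters, a replicate block and leaving out each library were alternatives, and the test was run on simulated data first. CPM in neuron tables use TMM-scaled library sizes, and in hippocampus the totals. Intervals cover counting error only. Lengths are union exons of GENCODE annotation. Named members were up to 8 rises and falls per comparison with the largest changes at 5 CPM or more, plus a list of neuronal members; others were picked after their values were seen. Some members are not reported here by name, and counts and medians include them. Members, lists and tests were chosen with earlier results of these data known.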

Additional observations from a re-analysis of the deposited data

Results flagged for a closer look

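The ApoE particle effect (set 2 minus set 1, log2, each against its own controls) differed between the sets for 22 named members, by edgeR's test of the difference itself. It was more positive in set 2 for Kcns1 (2.04), Kcnk4 (1.88), Kcnmb2 (1.70), Kcnk12 (1.68), Kcnt2 (1.64), Kcnip2 (1.56), Kcnc2 (1.51), Kcnj3 (1.40), Kcnip1 (1.39), Kcnip4 (1.02), Kcns2 (0.93), Kcnab1 (0.78), Kcnh1 (0.70), Kcnab2 (0.63), Kcnma1 (0.49), Kcnv1 (0.41) and Kcnd2 (0.31). It was more negative in set 2 for Kcnj10 (-2.33), Kcnn3 (-0.73), Kcnd3 (-0.46), Kcnk2 (-0.42) and Kcnq3 (-0.40). Of these 22 calls, 16 stood in every fit without a single library. Those of Kcnd2, Kcnh1, Kcnk2, Kcnq3, Kcns2 and Kcnv1 were lost in at least 1.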

How the results depend on the processing

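Named members kept their sign in every alternative run, wherever they were called in that run or in the fit reported above. Signs of members called in neither were not compared. Of 192 alternative counts of called members, 165 stayed within 1.5 times the value given, with 0 beside 0 taken as unchanged. All counts for the reconstituted particle against controls are of that kind. With DESeq2, 4 members rose and 34 fell in set 1 (Kcnj14 and Kcnj15 had no adjusted p), beside 2301 and 2257 of 16066 genes. In DESeq2 the ADM effect was more positive than that of set 1 for 3 members, beside 171 of 14870 genes. The replicate block gave 1 rise (Kcnj10, 0.76, edgeR adjusted p = 0.042) and 1 fall (Kcng1) for ADM, beside 373 and 92 of 16191 genes. It gave 3 members with a more positive ADM than set 1 effect, beside 336 of 17292 genes. In set 1 it gave 8 rises and 43 falls, beside 3331 and 3055 of 16475 genes. With 2 pairs, the numbers share only a label. Deviations of same-numbered libraries correlated at 0.48 in the ADM table and between -0.08 and 0.04 in the other 2.

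Leaving out single libraries gave these ranges of rises and falls: set 1, 3 to 10 and 33 to 44; set 2 ApoE particle, 5 to 10 and 7 to 13; reconstituted particle, 0 to 0 and 0 to 0; reconstituted against ApoE particle, 8 to 12 and 3 to 8; set 2 minus set 1, 23 to 35 and 3 to 10; ADM, 0 to 0 and 0 to 2; ADM minus set 1, 0 to 4 and 0 to 1. Set 1 had 4 rises without particle replicate 1 and 3 without replicate 2. Set 2 had 7 falls without control replicate 2 and 5 rises without particle replicate 1. Reconstituted against ApoE particle had 3 falls without reconstituted replicate 2 and 4 without ApoE particle replicate 1. Set 2 minus set 1 had 10 more negative members without set 1 control replicate 2 and 3 without set 1 particle replicate 2. ADM minus set 1 had 2 more positive members without ADM replicate 1, and 4 more positive and 1 more negative without ADM replicate 2. The cause was not tested.

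In hippocampus, a count minimum of 10 gave 13 higher and 13 lower members for control shRNA with FC against without, and 6 and 4 for ApoE shRNA with FC against control shRNA without FC. A fold of 2 gave 3 and 1 for control shRNA with FC against without, 1 and 3 for ApoE shRNA against control shRNA with FC, and 0 and 0 for ApoE shRNA with FC against control shRNA without FC. Members under 100 counts are limited by depth.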
